A study of Mus musculus with 4 samples.

Results

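The genes described here are the numbered cadherins and the numbered, non-clustered protocadherins of the mouse, taken as every gene whose symbol is Cdh or Pcdh followed by a number. The rule found 34 such genes among 21822 gene units. They comprise 5 type I cadherins (Cdh1, Cdh2, Cdh3, Cdh4 and Cdh15), 13 type II cadherins (Cdh5 to Cdh12, Cdh18, Cdh19, Cdh20, Cdh22 and Cdh24), 5 other cadherins (Cdh13, Cdh16, Cdh17, Cdh23 and Cdh26) and 11 protocadherins, of which 3 belong to the delta-1 group (Pcdh1, Pcdh7, Pcdh9), 5 to the delta-2 group (Pcdh8, Pcdh10, Pcdh17, Pcdh18, Pcdh19) and 3 to neither (Pcdh12, Pcdh15, Pcdh20). Pcdh11x fell under the rule but was not matched to a gene unit and is not analysed here.

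RNA was sequenced from aggregates of iMN-ESCs, mouse embryonic stem cells of C57BL/6 background that make, on doxycycline (Dox), a fusion of the LIM-homeodomain transcription factors Isl1 and Lhx3. All aggregates spent 2 days in stem cell medium with LIF and 2 days in 0.5 µM all-trans retinoic acid. For another 2 to 3 days retinoic acid was continued without Dox (no Dox, 2 libraries) or with Dox at 2 µg/mL (Dox, 2 libraries), and the labels do not say which length applied to which library. Both groups therefore carried the transgene and received retinoic acid, and effects of Dox itself cannot be told apart from those of the fusion, since Dox was never given to cells lacking it.

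Part counts summed to between 24020832 and 53903936 per library. Lhx3, part of the fusion, was read at 0.404 and 0.286 CPM (counts per 1000000, scaled by TMM) without Dox, against 125 and 108 CPM with it. The summed level of 8 motor neuron markers was 8.04 and 9.92 CPM without and 352 and 317 CPM with Dox. This list holds Lhx3 and Isl1 (104 and 82.4 CPM with Dox), so reads of the fusion may raise the sum by design. Outside the fusion, Mnx1 stood at 2.31 and 0.939 CPM without and 48.5 and 43.9 CPM with Dox. Slc18a3 stood at 0.624 and 0.49 CPM without and 25.7 and 25.5 CPM with Dox. All 8 had a log2 fold change above 0. The aggregates were not motor neurons alone: 10 epithelial and endoderm markers summed to between 1646 and 1961 CPM in all 4 libraries, and 8 neural progenitor markers to between 885 and 1363 CPM. Most of the progenitor sum was Vim, at 633 to 773 CPM, while Sox2 stood at 62.6 to 129 CPM and Pax6 at 67.4 to 149 CPM. The 6 pluripotency markers summed to between 11 and 17.6 CPM, and of 5 tested edgeR and DESeq2 called none, with 1 (Esrrb) higher at an unadjusted p under 0.05. In the replicate 2 libraries of both groups the counts leaned further toward the 3′ end of transcripts, with a median log2 ratio of counts in the 5′ parts to counts in as many 3′ parts of -1.75 and -1.58 over 4885 genes, against -1.03 and -1.12 in the replicate 1 libraries.

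Cadherins are calcium-dependent adhesion proteins that span the membrane and bind the same or a related cadherin on the neighbouring cell, while catenins tie their inner ends to actin. In the classical cadherins, bonding rests on an exchange of the tip strand of the outermost domain, whose tryptophan docks into the partner: type I members have a single such tryptophan and type II members a pair. In the spinal cord, combinations of type II cadherins differ between motor pools and take part in sorting their cell bodies, with Cdh2 as a broadly shared partner. Delta protocadherins are weaker adhesion molecules that signal to the cytoskeleton and act in neurite growth and cell sorting.

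The start of the mature adhesive domain is what separates the classes in sequence, and it is shown here for members whose levels are described below. Each line gives the first 30 coding bases after the site at which the propeptide is cleaved, from GENCODE M21 on build GRCm38, within a coding exon of the gene. Capitals mark TGG, the codon for tryptophan.
Cdh1 (chr8:106653582-106653611, + strand): gacTGGgtcatccctcccatcagctgcccc
Cdh3 (chr8:106536618-106536647, + strand): gagTGGgtgatgccaccaatattcgtcccc
Cdh4 (chr2:179797560-179797589, + strand): gacTGGgtcatcccacccatcaacgttccc
Cdh6 (chr15:13091689-13091718, - strand): agtTGGatgTGGaatcagttcttcctcctg
Cdh8 (chr8:99400765-99400794, - strand): ggcTGGgttTGGaatcaaatgtttgtcctg
Cdh10 (chr15:18899751-18899780, + strand): ggcTGGatgTGGaatcagtttttcttgctg
Cdh11 (chr8:102679651-102679680, - strand): ggcTGGgtcTGGaaccaattctttgtgata
Cdh20 (chr1:104934274-104934303, + strand): agcTGGgttTGGaatcagttttttgtcctg
Cdh12 (chr15:21237843-21237872, + strand): ggcTGGgtaTGGaatcagttttttgtgctg
All 5 type I genes had 1 TGG codon in this stretch, at codon 2, and all 13 type II genes had 2, at codons 2 and 4. Cdh26 had 1, and the searched pattern (a cleavage site followed by a tryptophan at codon 2) was not found in Cdh13, Cdh16, Cdh17 or Cdh23.

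Of the 34 genes, 26 passed the filter on low counts and were tested with Dox against no Dox among 14283 genes with edgeR's quasi-likelihood test. Cdh15 and Cdh20 passed the filter (0.305 CPM of summed part counts in 2 libraries) through their Dox libraries only and so had to be higher with Dox. The counts that follow, which include them, describe the tested genes and not the family, and support nothing about it. Pcdh9 and Pcdh7 had an adjusted p under 0.05, both higher with Dox. None of the 26 was called lower. Over all genes 1.23% were called higher and 0.056% lower. At an unadjusted p under 0.05, Pcdh9, Pcdh7, Cdh6 and Cdh20 were higher (background 6.26%) and Cdh1, Cdh3, Pcdh8, Pcdh10 and Pcdh20 lower (background 4.02%). Both Dox libraries lay above both others for 7 of the 26 and below them for 9, against 18.9% and 19.9% of all genes tested. The median log2 fold change of the 26 was -0.18, against -0.01 over all genes tested. DESeq2 called 4 higher (Cdh6 and Cdh20 in addition) and 1 lower (Pcdh10), with backgrounds of 2.6% and 0.739%. A blocked edgeR fit on replicate numbers called 5 higher (background 7.33%) and 6 lower (background 6.08%). In these bulk samples, fewer cells of a type and less RNA per cell cannot be told apart.

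**Figure D1:**
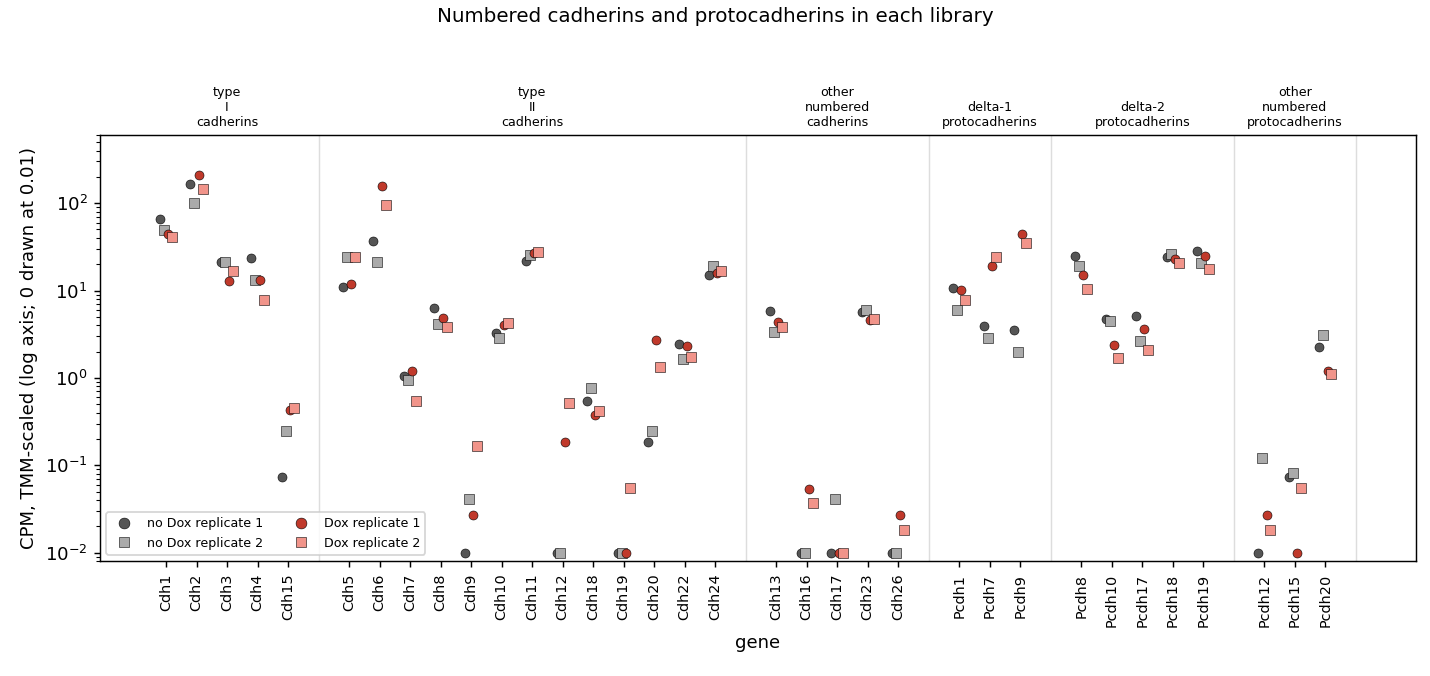
CPM of each of the 34 genes (log axis, TMM-scaled, a value of 0 drawn at the bottom) in the 4 libraries, grouped by class; grey symbols are no Dox, red symbols Dox, circles replicate 1 and squares replicate 2. The red symbols of Cdh6, Cdh20, Pcdh7 and Pcdh9 stand above the grey ones, and those of Pcdh8, Pcdh10 and Pcdh20 below.

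No type I cadherin passed edgeR's test, DESeq2 called 0, and Cdh1 and Cdh3 had an unadjusted p under 0.05. Cdh2 (N-cadherin, the main cadherin of the neural tube) stood at 166 and 101 CPM without and 211 and 146 CPM with Dox. The groups overlapped, while the Dox over no Dox ratio was 1.28 between the replicate 1 libraries and 1.45 between the replicate 2 libraries. The log2 fold change of 0.42 (SE 0.28) did not pass (edgeR adjusted p = 0.732) and ran from 0.11 to 0.83 when each library was left out. With replicate numbers as a block it passed (edgeR adjusted p = 0.000971). Cdh1 (E-cadherin, of epithelia and early embryonic cells) stood at 66.3 and 49.4 CPM without and 44.4 and 40.7 CPM with Dox. Cdh3 (P-cadherin, of placenta and epithelia) stood at 21.1 and 21.3 CPM without and 12.7 and 16.9 CPM with Dox. Both Dox libraries lay below both others for each of these epithelial cadherins, with log2 fold changes of -0.44 (SE 0.17) for Cdh1 and -0.52 (SE 0.18) for Cdh3, and neither passed adjustment (edgeR adjusted p = 0.435 and 0.383). Of the epithelial and endoderm markers, 5 of 10 had a log2 fold change above 0 and 5 below. None was called by edgeR, 1 (Krt19) was lower at an unadjusted p under 0.05, and DESeq2 called 1 lower. Their sum was 1733 and 1961 CPM without and 1646 and 1961 CPM with Dox. Most of it was the endoderm markers Dab2 (706 and 809 CPM without, 647 and 745 CPM with Dox) and Gata4 (560 and 591 CPM without, 553 and 644 CPM with Dox). Krt18, Krt19 and Sox17 were lower in both Dox libraries, while Epcam and Krt8 overlapped between groups. Krt19 stood at 20 and 15.8 CPM without and 8.16 and 11.7 CPM with Dox. The part of epithelial cells in the values of Cdh1 and Cdh3 was not tested.

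Cdh4 (R-cadherin, of retina and forebrain) stood at 23.4 and 13.1 CPM without and 13.1 and 7.76 CPM with Dox. Replicate 1 was higher than replicate 2 in each group, and the Dox over no Dox ratio was 0.562 between the replicate 1 libraries and 0.591 between the replicate 2 libraries. The log2 fold change was -0.81 (SE 0.36, edgeR adjusted p = 0.53). It ran from -1.24 to -0.33 when each library was left out, and passed without Dox replicate 1 (edgeR adjusted p = 0.0461, the lone Dox library assumed to vary like the others) and with the block (edgeR adjusted p = 0.000304). Cdh15 (M-cadherin, of muscle precursors) was near the bottom of the range at 0.0734 and 0.245 CPM without and 0.428 and 0.458 CPM with Dox. It had 8 counts in the no Dox libraries together and 41 in the Dox libraries, a ratio per library size of 2.88 (exact 95% interval 1.33 to 7.12, counting error only). Its edgeR adjusted p was 0.496, and between 0.133 and 1 over 9 alternatives.

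Among type II cadherins, Cdh6 and Cdh20 stood well above their no Dox levels in both Dox libraries, and the other 8 tested genes stayed within a log2 fold change of -0.72 to 0.45. Cdh6 (K-cadherin, present in subsets of spinal motor neurons and in developing kidney) stood at 37.1 and 21.4 CPM without and 156 and 94.9 CPM with Dox. The groups did not overlap, and the ratio was 4.2 between the replicate 1 libraries and 4.43 between the replicate 2 libraries. The log2 fold change was 2.10 (SE 0.33), just short of the threshold in the reported fit (edgeR adjusted p = 0.0552). It passed in 10 of 11 alternative settings, with log2 fold changes of 1.70 to 2.56 and adjusted p from 6.07e-12 to 0.0602, and the setting that missed was edgeR with DESeq2's size factors.

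Cdh20 (the mouse gene related to the chick cadherin known as MN-cadherin, which distinguishes motor pools) stood at 0.184 and 0.245 CPM without and 2.68 and 1.34 CPM with Dox. Every Dox value lay above every no Dox value. It had 11 counts in the no Dox libraries together and 173 in the Dox libraries, a ratio per library size of 8.85 (exact 95% interval 4.82 to 18.1). The fitted log2 fold change was 3.20 (SE 0.55, edgeR adjusted p = 0.0664, and from 4.09e-05 to 0.113 over 11 alternatives). Because its Dox libraries alone brought it past the filter, these p-values describe the gene and are no support. The ratio differed between the replicate numbers, at 14.6 and 5.46.

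The remaining type II genes that were tested gave no call in any alternative run. Cdh11 (OB-cadherin, of mesenchyme and brain) stood at 21.5 and 25.5 CPM without and 27.2 and 27.3 CPM with Dox (log2 fold change 0.22, SE 0.15). Cdh24 stood at 15.2 and 19 CPM without and 15.8 and 16.9 CPM with Dox. Cdh10, a brain cadherin, stood at 3.23 and 2.9 CPM without and 4.07 and 4.28 CPM with Dox. Cdh11 and Cdh10 had no overlap between groups, Cdh24 did, and the edgeR adjusted p was 0.742, 0.612 and 0.97.

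Cdh8, which marks cortical and other neuron subsets, stood at 6.31 and 4.12 CPM without and 4.87 and 3.84 CPM with Dox. Cdh22 (PB-cadherin) stood at 2.42 and 1.63 CPM without and 2.33 and 1.72 CPM with Dox. Cdh7 stood at 1.06 and 0.939 CPM without and 1.2 and 0.549 CPM with Dox. In Cdh22 and Cdh7 the Dox values straddled the no Dox values or lay between them, and in Cdh8 the value of Dox replicate 1 lay within their range. Cdh18, a neuronal cadherin, stood at 0.551 and 0.775 CPM without and 0.375 and 0.421 CPM with Dox, lower in both Dox libraries (log2 fold change -0.72, SE 0.41, edgeR adjusted p = 0.67).

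Cdh5 (VE-cadherin, of endothelial junctions) followed the replicate number: it stood at 10.9 and 24.5 CPM without and at 12 and 24.3 CPM with Dox (log2 fold change 0.05, SE 0.46, edgeR adjusted p = 0.997). Pecam1, a marker of the endothelial list, was at 0.33 and 0.857 CPM without and 0.428 and 0.879 CPM with Dox. Tek was at 13 and 17.7 CPM without and 15.5 and 23.4 CPM with Dox, and Esam at 4.51 and 6.41 CPM without and 3.96 and 6.06 CPM with Dox. Emcn had 2 counts in each replicate 1 library and 0 in both replicate 2 libraries. Pecam1, Tek, Esam and Erg were higher in replicate 2 of each group, while Flt1, Emcn and Cldn5 were lower there. For Kdr and Tie1 the direction differed between groups. Flt1, a VEGF receptor found also outside endothelium, was at 368 and 185 CPM without and 212 and 138 CPM with Dox. The 9 endothelial markers summed to 389 and 212 CPM without and 238 and 175 CPM with Dox, most of it Flt1. Of the 6 tested, edgeR called 1 (Erg) higher. At an unadjusted p under 0.05, 2 (Erg and Kdr) were higher and 0 lower, and DESeq2 called 1 higher. The part of endothelial cells in the level of Cdh5 was not tested.

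The other 3 type II genes had too few counts for the reported fit. Cdh12 (a brain cadherin) had 0 counts in both no Dox libraries and 7 and 28 counts in the Dox libraries, which is at least 6.56-fold higher against a floor of 3 counts over the no Dox group. Some alternative fits took Cdh12 in through Dox libraries only, and its call in the fit without Dox replicate 1 is no support. Cdh9 (of hippocampal and other neurons) had 1 count without and 10 counts with Dox, a ratio of 5.62 with an exact 95% interval of 0.8 to 244. Cdh19 (of Schwann cell precursors) had 3 counts, all in Dox replicate 2. Of 5 tested neural crest and Schwann cell markers edgeR called none, 1 (Ngfr) was higher and 1 (Foxd3) lower at an unadjusted p under 0.05, and DESeq2 called 1 higher. The list's 7 genes summed to 39.6 and 43.3 CPM without and 47.6 and 45.4 CPM with Dox.

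**Figure D2:**
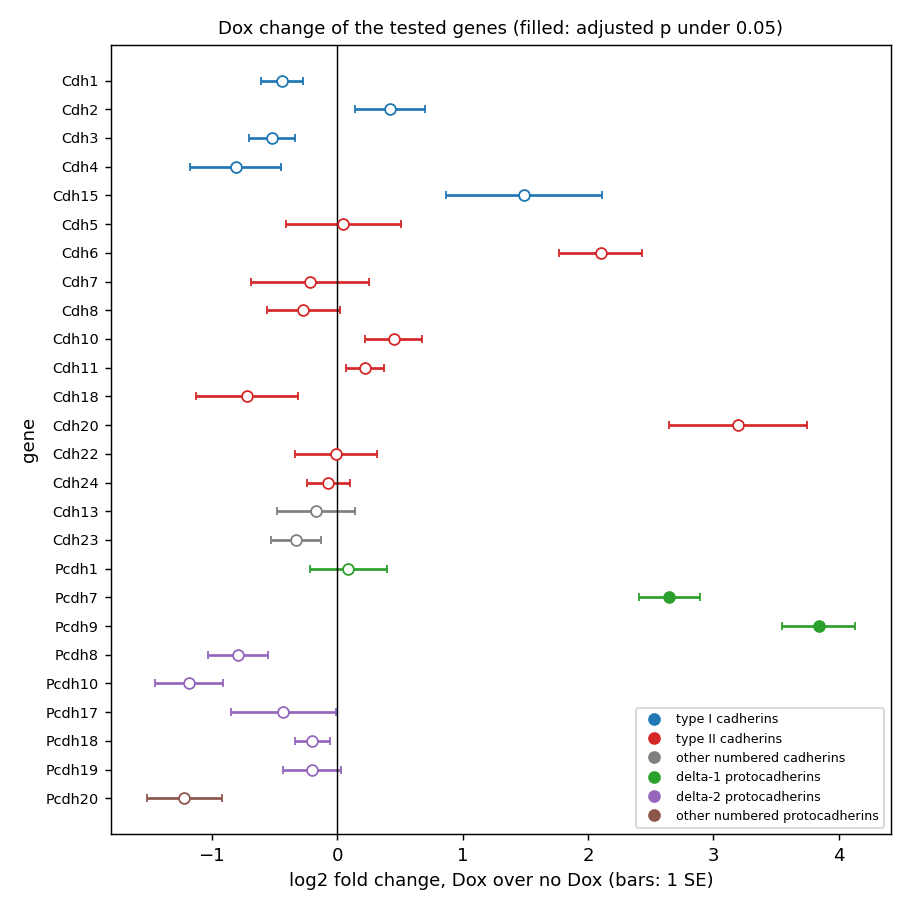
Log2 fold change, Dox over no Dox, of the 26 tested genes with bars of 1 standard error, coloured by class; filled points have an edgeR adjusted p under 0.05. Pcdh9 (3.84) and Pcdh7 (2.65) are filled, Cdh20 (3.20) and Cdh6 (2.10) stand to the right unfilled, and all 5 delta-2 protocadherins lie left of 0.

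Levels of different genes were compared per length, as reads per kilobase per 1000000 (RPKM). The last annotated exon of Cdh6 is 5990 bases long and held few counts for its length, as did that of Cdh2 at 1477 bases. The longest transcript may thus understate both, but a read that spans short internal exons may be counted in each. By the longest transcript Cdh6 stood at a mean of 3.58 RPKM without and 15.3 RPKM with Dox. The classical cadherins were compared over their internal exons only, which 16 of the 18 allowed (all but Cdh3 and Cdh8). By this measure Cdh6 stood at 14.9 and 8.24 RPKM without and 61.3 and 36.1 RPKM with Dox. Cdh2 stood at 63.5 and 37.7 RPKM without and 80.7 and 55.1 RPKM with Dox. Internal exons leave out the last exon, and counts of Cdh1 and Cdh11 leaned further toward the 3′ end than those of Cdh6. By this measure, chosen after the data were seen, the mean of Cdh6 was the third among these genes without Dox. It stood at 11.6 RPKM, after Cdh2 (50.6) and Cdh1 (13.1). With Dox it was the second, at 48.7 RPKM, after Cdh2 (67.9) and ahead of Cdh1 (10.2), Cdh11 (6.88), Cdh24 (6.8) and Cdh5 (5.91). The Dox ranges of Cdh6 and Cdh2 overlapped, as did the no Dox ranges of Cdh6 and Cdh1, so neither of these neighbours in the order was separated by its spread, although Cdh2 was above Cdh6 in each single library. Cdh11, Cdh24 and Cdh5 also overlapped each other.

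The summed level of 12 type II genes was 33.8 and 30.7 RPKM without and 83.5 and 60 RPKM with Dox, over internal exons. Without Cdh6 the sum was 19 and 22.5 RPKM without and 22.2 and 23.9 RPKM with Dox, ranges that overlapped. Cdh6 made up 43.9% and 26.9% of the type II sum without and 73.4% and 60.2% with Dox. The 4 type I genes summed to 85.3 and 48.7 RPKM without and 95.2 and 65 RPKM with Dox. Type II genes thus held 28.4% and 38.7% of the classical cadherin level without and 46.7% and 48% with Dox, and 18.2% and 31.6% against 18.9% and 26.9% when Cdh6 was left out. By the longest transcript of all 18 genes the type II share was lower and the groups still did not overlap, at 24.8% and 35.6% without and 37.7% and 40.9% with Dox. Cdh6 then made up a smaller part of the type II sum, at 23.9% and 12.2% without and 53.7% and 37.8% with Dox.

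**Figure D3:**
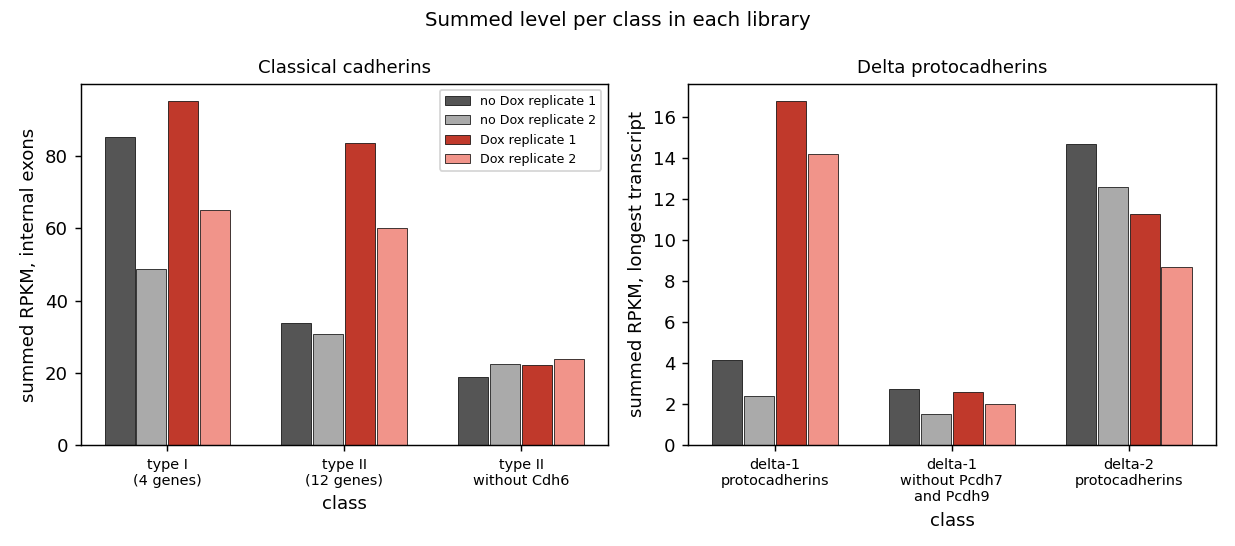
Summed RPKM per class in each library (bars from 0, 1 bar per library); the left panel sums internal exons of the classical cadherins, the right panel uses the longest transcript of the delta protocadherins. The Dox bars of the type II and delta-1 sums exceed both no Dox bars, and the difference is not seen in the sums without Cdh6 or without Pcdh7 and Pcdh9.

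The delta-1 protocadherins held both genes that passed the test. These have long cytoplasmic tails and carry a motif that binds protein phosphatase 1. Pcdh9, a neuronal adhesion gene, stood at 3.52 and 2 CPM without and 44.7 and 35.1 CPM with Dox. Both libraries with Dox lay above both without it. The Dox over no Dox ratio was 12.7 between the replicate 1 libraries and 17.6 between the replicate 2 libraries. Its log2 fold change was 3.84 (SE 0.29, edgeR adjusted p = 0.004). Pcdh7 (NF-protocadherin, which acts in axon growth and ectodermal adhesion) stood at 3.96 and 2.9 CPM without and 19 and 24.1 CPM with Dox. The ratios were 4.81 and 8.31, and the log2 fold change was 2.65 (SE 0.24, edgeR adjusted p = 0.0071). Both genes passed in all 11 alternatives, with log2 fold changes of 3.50 to 4.32 for Pcdh9 and 2.44 to 2.90 for Pcdh7. Pcdh1, the third measured gene of the group, known from airway epithelium and brain, stood at 10.7 and 6.04 CPM without and 10.1 and 7.8 CPM with Dox, with Dox values inside the no Dox range (log2 fold change 0.09, SE 0.31, edgeR adjusted p = 0.981).

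All 5 delta-2 protocadherins had a log2 fold change below 0, with a median of -0.43, where 7558 of all 14283 genes tested lay below 0. Without no Dox replicate 1, Pcdh17 became 0.14 and Pcdh19 0.04. None passed edgeR's test, and 2 (Pcdh8 and Pcdh10) had an unadjusted p under 0.05. Members of this group bind the WAVE complex that drives actin branching. Pcdh8 (arcadlin, which takes part in cell sorting in the embryo and in synaptic remodelling) stood at 24.9 and 19 CPM without and 15.1 and 10.3 CPM with Dox. Pcdh10 (OL-protocadherin, of axon outgrowth) stood at 4.74 and 4.53 CPM without and 2.41 and 1.7 CPM with Dox. Both Dox libraries lay below both others in each, with log2 fold changes of -0.79 (SE 0.24) and -1.18 (SE 0.27) and edgeR adjusted p of 0.294 and 0.151. DESeq2 called Pcdh10 (adjusted p = 0.0403), and edgeR without Dox replicate 1 called Pcdh8 (adjusted p = 0.041). Over all alternatives the adjusted p ran from 0.000175 to 1 for Pcdh8 and from 0.000971 to 0.701 for Pcdh10.

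Pcdh18 stood at 24.4 and 26 CPM without and 23.2 and 20.7 CPM with Dox (log2 fold change -0.20, SE 0.14). Pcdh19, an X-linked gene whose loss causes epilepsy and whose protein pairs with Cdh2, stood at 28.1 and 20.9 CPM without and 25 and 17.8 CPM with Dox, also -0.20 (SE 0.23). The Pcdh18 groups did not overlap, those of Pcdh19 did, and neither passed (edgeR adjusted p = 0.757 and 0.879). Pcdh17 stood at 5.07 and 2.61 CPM without and 3.67 and 2.11 CPM with Dox. Of the 8 progenitor markers tested, 7 had a log2 fold change below 0. None was called by edgeR, 5 were lower at an unadjusted p under 0.05, and DESeq2 called 3 lower. Their sum was 1363 and 1160 CPM without and 1124 and 885 CPM with Dox. Most of it was Vim, at 773 and 683 CPM without and 752 and 633 CPM with Dox (log2 fold change -0.07). The part of progenitor cells in the delta-2 values was not tested.

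By the longest transcript the delta-1 genes summed to 4.15 and 2.42 RPKM without and 16.8 and 14.2 RPKM with Dox, while the delta-2 genes summed to 14.7 and 12.6 RPKM without and 11.3 and 8.7 RPKM with Dox. The delta-1 genes made up 22% and 16.1% of the 2 groups' sum without and 59.7% and 62% with Dox, so that the larger sum was the delta-2 one without and the delta-1 one with Dox. The last annotated exon of Pcdh9, of 374 bases, held 507 and 783 counts with Dox. Its first, of 3036 bases, held 1082 and 1050, so its annotated length may be too short and its RPKM overstated. In CPM, without lengths, delta-1 and delta-2 sums with Dox were closer: 73.8 against 69.4 in replicate 1 and 67 against 52.6 in replicate 2. Without Dox they were 18.2 against 87.1 and 10.9 against 73. Without Pcdh7 and Pcdh9, the delta-1 sum was 2.75 and 1.55 RPKM without and 2.59 and 2 RPKM with Dox. Pcdh9 stood at a mean of 0.744 RPKM without and 10.7 RPKM with Dox, Pcdh7 at 0.391 and 2.45 RPKM. At or above 1 mean RPKM stood 14 genes without and 16 with Dox.

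Of the genes outside these classes, 3 were tested. Pcdh20 stood at 2.28 and 3.1 CPM without and 1.2 and 1.1 CPM with Dox, with no overlap between groups, a log2 fold change of -1.22 (SE 0.30) and an edgeR adjusted p of 0.187. Cdh13 (T-cadherin, held by a lipid anchor in place of a membrane-spanning segment) stood at 5.84 and 3.39 CPM without and 4.41 and 3.83 CPM with Dox. Cdh23 (a tip-link protein of hair cells) stood at 5.62 and 6.04 CPM without and 4.55 and 4.69 CPM with Dox, lower in both Dox libraries (log2 fold change -0.33, SE 0.20, edgeR adjusted p = 0.693). Pcdh15, the tip-link partner of Cdh23, Pcdh12 of vascular endothelium, Cdh16 of kidney, Cdh17 of intestine and Cdh26 of epithelia were at 0.122 CPM or below in every library, where 3 counts correspond to between 0.0549 and 0.122 CPM.

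The counts were deposited for numbered parts of each gene, so that each change could be followed along the transcript. Cdh6 was higher with Dox in all 12 of its parts, with log2 ratios of summed counts between 1.82 and 2.14. Pcdh7 was higher in all 4 parts (2.08 to 2.90). Pcdh9 was higher in the 2 parts with at least 5 counts in each group (3.64 and 3.89), which are the first and the last. Cdh2 lay above 0 in all 16 parts (0.15 to 0.74), Cdh1 below 0 in all 16 (-0.99 to -0.20), Cdh4 in all 16 (-1.61 to -0.34), and Pcdh8 in all 4 (-1.03 to -0.71). Parts of 1 gene share reads and are not replicates. In edgeR's test of differential part use, none of the 20 members with 2 or more tested parts was called (Simes, adjusted over 11556 genes, background 0.0173%), 0 had an unadjusted p under 0.05 (background 0.234%), and the gene-level F test also called 0. The lowest unadjusted p, that of Cdh22, was 0.354.

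**Figure D4:**
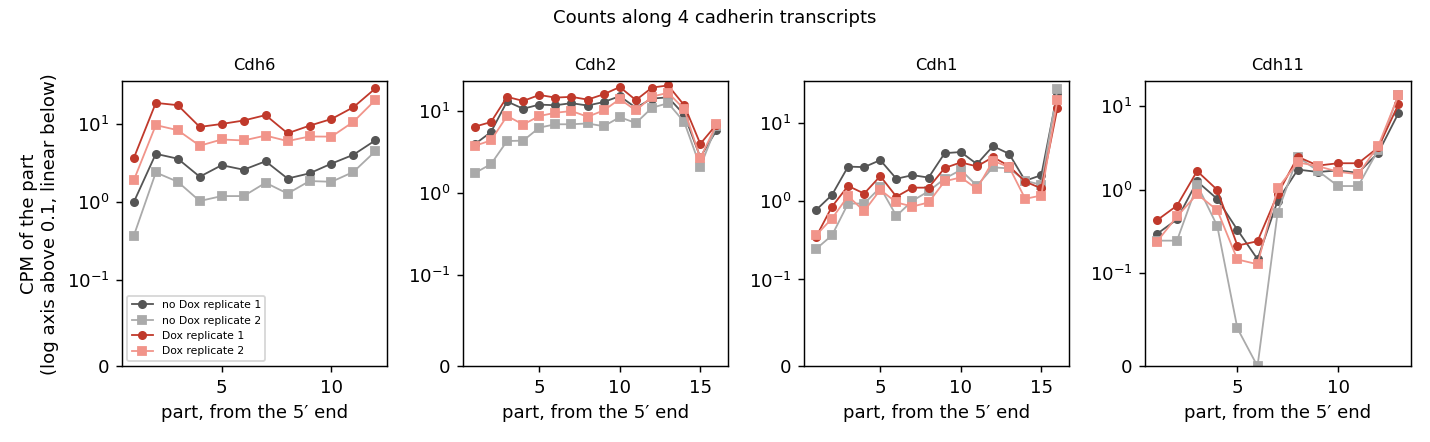
CPM of each numbered part of Cdh6, Cdh2, Cdh1 and Cdh11 from the 5′ to the 3′ end (log axis above 0.1, linear below), 1 line per library. Both Dox lines of Cdh6 lie above both no Dox lines at every part, while for Cdh11 the lines interlace, and for Cdh1 the last part carries more counts than any other.

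None of 10 tested catenins and junction partners was called, 1 had an unadjusted p under 0.05 (Ctnnd2, lower), DESeq2 called 0, and the median log2 fold change was 0.03. Ctnnb1 (beta-catenin, which links cadherins to alpha-catenin) stood at 1377 and 1281 CPM without and 1437 and 1372 CPM with Dox. Ctnna1 (alpha-catenin, the actin link) stood at 516 and 493 CPM without and 522 and 539 CPM with Dox. The edgeR adjusted p was 0.94 and 0.942. Of 15 tested genes elsewhere in the cadherin superfamily, 1 was called: Clstn2 (calsyntenin 2, of synapses) stood at 7.16 and 10.7 CPM without and 37.2 and 31.3 CPM with Dox (log2 fold change 1.94, SE 0.23, edgeR adjusted p = 0.0191). The median of these 15 was -0.02.

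Of 6 tested transcription factors known from switches between Cdh1 and Cdh2, none was called by edgeR, 1 (Twist1) was higher at an unadjusted p under 0.05, DESeq2 called 1 higher, and the median log2 fold change was 0.03. Zeb1, a repressor of Cdh1, stood at 83.1 and 62.4 CPM without and 77.2 and 65.3 CPM with Dox. Zeb2, its relative, stood at 77.4 and 58.5 CPM without and 81 and 63.4 CPM with Dox. Both genes overlapped between groups (edgeR adjusted p = 0.991 and 0.959). Among all 31 tested genes of the 3 lists, edgeR called 1 higher (background 1.23%) and 0 lower (background 0.056%). Before adjustment, p was below 0.05 for 4 that rose (background 6.26%) and 2 that fell (background 4.02%). DESeq2 called 3 higher (background 2.6%) and 1 lower (background 0.739%). These backgrounds are shares of all genes tested and apply to the counts of each single pathway or marker list as well. Of the general neuron markers 0 of 9 were called by edgeR, 1 was higher and 3 lower at an unadjusted p under 0.05, and DESeq2 called 1 in each direction. Their sum was 436 and 352 CPM without and 320 and 240 CPM with Dox. Of the mesenchyme markers Col1a1, Col3a1 and Prrx1 were called higher among 6 tested, of which 5 had a log2 fold change above 0 and 1 (Pdgfra) below. The 8-gene sum was 507 and 473 CPM without and 555 and 529 CPM with Dox. Most of it was Pdgfra, at 467 and 425 CPM without and lower in both Dox libraries (log2 fold change -0.19). Col3a1 stood at 12.8 and 15.8 CPM without and 74.2 and 61.2 CPM with Dox. Col1a1 stood at 7.23 and 7.18 CPM without and 34.4 and 23.3 CPM with Dox. Prrx1 stood at 2.61 and 3.63 CPM without and 35.3 and 25.1 CPM with Dox. Lum and Dcn, others of these markers, had too few counts to be tested. Lum had 0 counts in both no Dox libraries and 6 and 4 counts with Dox. Dcn had 1 and 10 counts without and 1 and 9 counts with Dox. The part of these cells in the values of Cdh6, Cdh20, Pcdh7 and Pcdh9 was not tested.

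Because LIM-homeodomain factors recognise sites with a TAAT core, the 250 bases before the start of the 4 members that were higher with Dox at an unadjusted p under 0.05 are shown. The sequences are those of RefSeq for GRCm38.p6, where 22 of the 34 genes had an entry, written 5′ to 3′ along the gene. Capitals mark TAAT or its reverse complement ATTA.
Cdh6 (chr15:13173676-13173925, - strand): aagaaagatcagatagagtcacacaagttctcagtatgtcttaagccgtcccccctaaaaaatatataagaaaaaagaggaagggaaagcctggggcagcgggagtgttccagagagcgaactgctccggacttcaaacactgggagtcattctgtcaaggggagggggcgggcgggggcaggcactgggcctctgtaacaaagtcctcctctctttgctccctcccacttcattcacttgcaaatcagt
Cdh20 (chr1:104768270-104768519, + strand): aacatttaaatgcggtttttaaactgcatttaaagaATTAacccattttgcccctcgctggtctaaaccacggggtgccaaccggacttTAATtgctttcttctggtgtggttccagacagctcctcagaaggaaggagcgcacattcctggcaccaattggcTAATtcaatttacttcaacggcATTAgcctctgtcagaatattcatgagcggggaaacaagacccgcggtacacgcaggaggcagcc
Pcdh7 (chr5:57717831-57718080, + strand): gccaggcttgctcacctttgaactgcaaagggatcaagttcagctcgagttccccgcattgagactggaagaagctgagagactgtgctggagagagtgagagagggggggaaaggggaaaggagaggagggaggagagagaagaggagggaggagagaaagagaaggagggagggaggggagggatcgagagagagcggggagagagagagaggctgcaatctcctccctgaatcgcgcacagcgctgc
Pcdh9 (chr14:93890670-93890919, - strand): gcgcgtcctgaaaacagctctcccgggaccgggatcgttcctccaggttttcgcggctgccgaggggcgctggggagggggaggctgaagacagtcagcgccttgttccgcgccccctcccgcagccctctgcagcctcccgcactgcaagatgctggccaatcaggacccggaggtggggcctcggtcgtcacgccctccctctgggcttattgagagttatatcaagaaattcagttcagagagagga
Cdh20 held 4 matches and the other 3 held none, as did the second listed start of Pcdh9. TAAT on either strand was in 13 of the 22 genes with an entry, where 54.9% of 32851 promoters of the same length held it. The palindrome TAATTA, which contains TAAT, was in 1 of the 22 (Cdh7), against 4.84% of all promoters. A member counted with a match at any of its listed starts, whereas the shares of all promoters count each start singly. A match is a run of letters and not a measured binding site, and sequence further from the start was not searched.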

How the data were processed

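The authors deposited whole-number counts per numbered part of each gene, 1 table per sample, with 208825 parts. TopHat and the mouse build mm9 are named, per the submitters' processing notes, and libraries were made with the TruSeq protocol, per the labels' protocols. Which counting tool and annotation were used, and whether strand counted, is not given in the sources used here, so reads of overlapping antisense genes cannot be told apart. A read that spans parts may be counted in each, and a sum over parts can exceed the reads of a gene. Rows that name no gene (13.6% to 15.8% outside genes and 0.41% to 0.52% ambiguous, of all counts) were left out.

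Part counts were summed to 21822 gene units, and 97.1% of 27601 transcript identifiers were matched to symbols in RefSeq (GRCm38.p6) and GENCODE M21. That build is later than mm9: it gave names, exon lengths and the printed sequences, and no count was placed by its coordinates. Part numbers followed genome order, by agreement with exon positions, in 96.3% of 4045 genes on the + strand and 96.5% of 4091 on the - strand. RPKM used the longest matched transcript, or the internal exons where stated.

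Genes were tested with edgeR 4.0.16 (R 4.3.3; quasi-likelihood F test, robust, TMM, default filter on low counts, Benjamini-Hochberg over 14283 genes, threshold 0.05). Part use was tested with diffSpliceDGE of edgeR. DESeq2 1.42.0, other scalings, no filter, the largest or 3′ part as the count (the latter chosen after seeing the data, as was the use of internal exons), a replicate block and leaving out each library were alternatives. The biological coefficient of variation was 0.148. Tested on simulated counts of this comparison (14148 genes), edgeR found 74 of 100 seeded 2-fold changes and 99 of 100 seeded 4-fold changes, and made 17 false calls. Changes were seeded only in genes with higher counts, and libraries were drawn independently, without the deviation shared by same-numbered libraries. These rates therefore do not give the power for genes with few counts or in the real libraries.

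The groups come from the sample titles, and the design text calls the 2 samples of each group biological duplicates. The members and gene lists were chosen with earlier results of these data known. Every member is accounted for, with the value in each library for members with a mean CPM of 10 or more, an unadjusted p under 0.05, or a place in the tested type II list. Further members are given likewise. Of each pathway list up to 4 called genes are named, or with none the 2 with the largest mean CPM, and Ctnnd2 and Twist1 were named after their values were seen. Of marker lists, counts and sums are given, and the single marker genes named were chosen after their values were seen. Intervals and floors cover counting error only.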

Additional observations from a re-analysis of the deposited data

How the results depend on the processing

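The count of all genes called was 183 and became 341 with no filter on low counts, 511 with DESeq2, and between 299 and 407 when each library was left out. Members called higher numbered 2, and 4 with no filter and 4 with DESeq2. Cdh20, which passed the filter through its Dox libraries only, was among the calls of both. The count was also larger with each library left out. Without Dox replicate 1 it took in Cdh20 and Cdh12. Cdh12 had no count without Dox and entered that fit through the remaining Dox library alone, so its call is no support. Members called lower numbered 0, with 5 at an unadjusted p under 0.05, and became 1 with DESeq2 and 0 to 2 with a library left out (2 without Dox replicate 1). Pathway genes called higher numbered 1, and 2 with no filter, 3 with DESeq2 and 1 to 4 with a library left out (4 without no Dox replicate 1), and those called lower numbered 0, 1 with DESeq2 and 0 to 1 with a library left out (1 without Dox replicate 1). The cause was not tested.

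Of 276 log2 fold changes of the 26 tested members under the alternatives, 231 kept direction and side of the threshold, 25 passed it where the reported fit did not, and 20, in 10 genes, turned direction, with no call in either fit. Leaving out 1 library at a time gave -0.54 to 0.74 for Cdh5, -0.86 to 0.28 for Cdh7, -0.54 to 0.08 for Cdh8, -0.51 to 0.29 for Cdh13, -0.27 to 0.31 for Cdh22, -0.21 to 0.10 for Cdh24, -0.26 to 0.57 for Pcdh1, -0.87 to 0.14 for Pcdh17 and -0.46 to 0.05 for Pcdh19. The sign turned without no Dox replicate 1 for Cdh5 (-0.42), Cdh8, Cdh13, Cdh22, Pcdh17 and Pcdh19 (0.04), without no Dox replicate 2 for Cdh24 and Pcdh1, without Dox replicate 1 for Pcdh1 (-0.11), and, when Dox replicate 2 was dropped, for Cdh5, Cdh7, Cdh22 (0.22) and Pcdh19. Cdh22, at -0.01, became 0.01 by library totals, 0.01 with no filter, 0.54 by its largest part and 0.56 by its 3′ part. Cdh23 became 0.21 by its largest part and 0.23 by its 3′ part.

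With the replicate number as a block, 1916 genes were called, among them 5 members higher and 6 lower, and 7 pathway genes higher and 6 lower. Cdh22 then stood at 0.00. The members called besides Pcdh7, Pcdh9, Cdh6 and Cdh20 were Cdh2 higher (adjusted p = 0.000971) and Cdh1, Cdh3, Cdh4, Pcdh8, Pcdh10 and Pcdh20 lower. Same-numbered libraries deviated together across genes (correlation 0.605), but the labels do not say that a number marks a shared batch, and there are only 2 pairs, so the numbers are not taken to pair the libraries. The block is 1 of the alternatives in each range of adjusted p.

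Depth limits the genes near 0: 3 counts correspond to 0.0549 to 0.122 CPM per library.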
